A study of Rattus norvegicus with 20 samples.

Results

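The translation initiation and elongation factors were followed in white adipose tissue of calorie-restricted (CR) rats. They were taken as every array probe set that the platform annotation pairs with 1 gene symbol starting with Eif or Eef and a digit, and the probe set with the highest mean signal stood for its gene. This gave 66 probe sets for 56 genes, out of 15866 probe sets for 10411 genes on the array. Of the 56 genes, 53 had enough signal to be tested, and Eef1a2, Eef1akmt4 and Eif2ak4 did not. The rule also takes in the 4E-BP genes and enzymes that modify the factors, because their symbols start in the same way.

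Male Wistar rats, 6 weeks of age at the start, were housed singly on the AIN-93G powdered diet. Control rats received their recorded daily intake and the others 5%, 10%, 20% or 30% less, for 1 week (1 w) or 1 month (1 m). White fat from the visceral depot was taken after a 16 h fast, so every group, control included, was fasted. RNA of 5 rats was combined into 1 pool per group, and each of the 10 pools was hybridised to 2 chips, so the pool is the replicate and the tests measure the spread between pools. No group has a spread of its own.

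Initiation factors bring the small ribosomal subunit, the initiator tRNA and the messenger RNA together at the start codon. eIF4F binds the cap of the messenger, and the 4E-BP proteins hold its cap-binding subunit eIF4E until the kinase mTORC1, which senses nutrients, phosphorylates them. eIF2 carries the initiator tRNA, eIF2B recharges eIF2 with GTP, and stress kinases block that step, while eEF1 and eEF2 move the ribosome along the messenger. Much of the control of these proteins is by phosphorylation, which an RNA array does not measure.

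The 150 bases upstream of the RefSeq start site (GRCr8) are shown for the factors whose RNA passed a test below and that are in the promoter table. They are given 5′ to 3′ on the gene's strand. Capitals mark CACGTG, an E-box, or CCGGAAG, an ETS core, on either strand.
Eif4ebp2: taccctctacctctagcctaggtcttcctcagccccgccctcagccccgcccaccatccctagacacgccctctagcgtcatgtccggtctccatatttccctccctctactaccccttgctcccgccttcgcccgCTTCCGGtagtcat
Eif2b3: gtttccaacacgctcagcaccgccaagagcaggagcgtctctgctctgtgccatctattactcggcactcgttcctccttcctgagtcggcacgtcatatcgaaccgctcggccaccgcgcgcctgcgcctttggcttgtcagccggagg
Eif3a: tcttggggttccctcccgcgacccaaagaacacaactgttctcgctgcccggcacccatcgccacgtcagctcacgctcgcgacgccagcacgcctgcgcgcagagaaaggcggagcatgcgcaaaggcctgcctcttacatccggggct
Eif1b: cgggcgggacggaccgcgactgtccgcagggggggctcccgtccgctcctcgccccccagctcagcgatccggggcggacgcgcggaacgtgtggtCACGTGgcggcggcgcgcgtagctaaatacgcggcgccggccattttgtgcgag
Eif4a2: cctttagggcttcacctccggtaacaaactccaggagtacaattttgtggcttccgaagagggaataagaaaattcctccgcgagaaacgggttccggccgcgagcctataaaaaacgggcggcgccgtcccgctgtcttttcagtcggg
These windows lie at chr20:29942923-29943072 on the minus strand, chr5:135728692-135728841 on the plus strand, chr1:269919026-269919175 on the minus strand, chr8:129081008-129081157 on the plus strand and chr11:91275324-91275473 on the minus strand. The ETS core of Eif4ebp2 started 14 bases before the start site, and the E-box of Eif1b 54 bases before it. Of the 56 genes, 51 were matched to the table, and Eif4ebp1, Eif4b, Eif3h, Eef1d and Eif4e3 were not. Within 250 bases upstream, 10 of the 51 (19.6%) held the E-box, against 5.59% of all 33469 promoters in the table and 6.16% of the protein-coding ones. The ETS core was in 17 of the 51 (33.3%), against 7.27% of all and 9.01% of the protein-coding promoters. TGATGCAAT, an ATF4 element, was in 0 of the 51 and 0.161% of all promoters, and GTAAACA, a FOXO element, in 0 of the 51 and 3.21%. Both strands were searched, none of the 4 motifs contains another, and a match describes letters only.

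Signals are MAS5 values scaled to one trimmed mean per chip and taken to log2. They are read within a gene, because probe sets differ in how strongly they bind. A few facts of the pools touch all results. For the adipocyte markers (10 genes) the log2 mean was lowest in the controls, 9.99 at 1 w and 10.04 at 1 m. Over the 8 restricted pools it ran from 10.26 to 10.53. Their dose slopes were above 0 for 9 genes and below 0 for 1, with 3 called up and 0 down in limma. Comparing restricted with control pools, 4 of these 10 genes were called up and 0 down. The part of adipocytes in the rising factor values was not tested. Markers of the exocrine pancreas (20 genes) stood at 11.24 in the 1 w control and 5.68 in the 1 w 30% CR pool, against 2.48 to 3.04 in the other 8 pools. Lymphocyte markers (9 genes) ran at 7.88, 7.04, 5.96, 6.37 and 3.68 from control to 30% CR at 1 w, and at 7.75, 7.69, 3.79, 4.05 and 6.74 at 1 m. All 9 had a dose slope below 0 and 1 of them passed, and the means at 1 m were not in order of dose. In such bulk tissue fewer cells of a type and less RNA per cell cannot be told apart. The calls on the dose slope are therefore also given with the lymphocyte mean as a covariate and without the 1 w control pool.

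The dose slope is the change of log2 signal per 10% of restriction, fitted over both durations. By this measure 4 of the 53 tested factors were up-regulated, namely Eif4ebp1, Eif2b3, Eif4ebp2 and Eif3a, and 1, Eif1b, was down-regulated (adjusted p under 0.05 in limma). These are 9.43% of the factors, while 9.4% of all 9520 tested probe sets were called, 5.71% up and 3.69% down. The factors as a whole were thus called at the rate of the array. At an unadjusted p under 0.05 there were 16 factors, or 30.2%, against 30.1% of all. The median slope was -0.011 for the factors and -0.011 for all tested probe sets, and 32 of 53 slopes (60.4%) were below 0, against 54.6% of all. Centring each chip on its median moved both medians to 0.034, so slopes of this size have no settled sign. For restricted against control the same centring moved the median of all probe sets from -0.026 to 0.091, and that of the factors from -0.096 to 0.021. With centring the calls on the dose slope were 3 up and 0 down, when 6.03% of all probe sets were called up and 1.53% down.

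**Figure D1:**
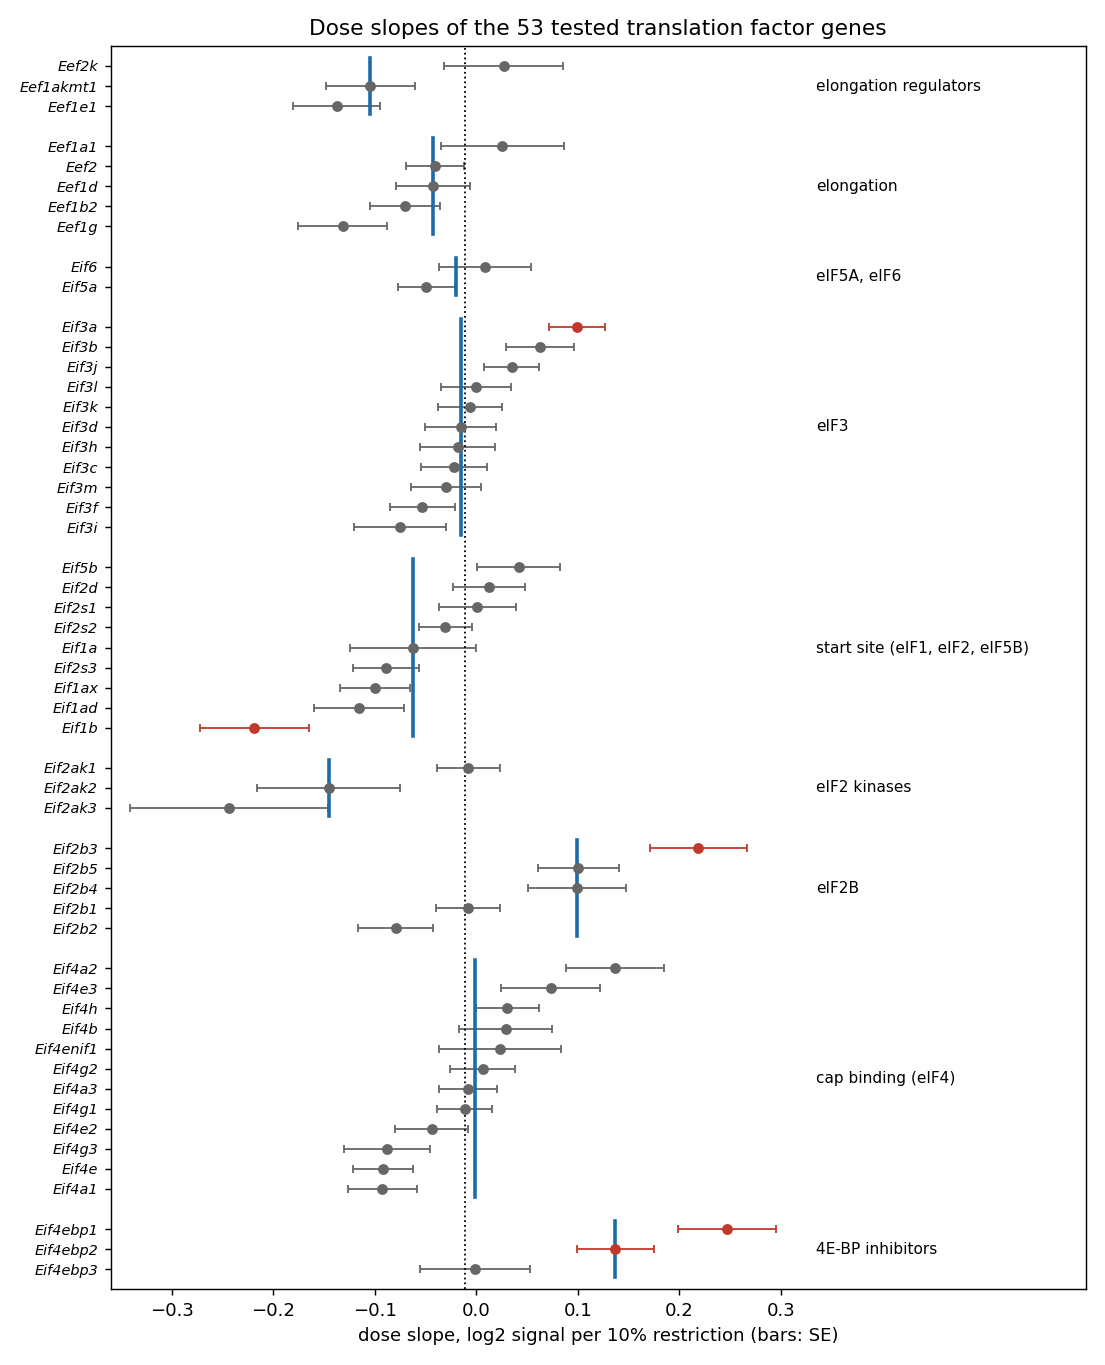
Dose slope (x axis, log2 signal per 10% restriction) of each of the 53 tested translation factor genes, grouped by role, with the SE as bars. Red marks the 5 genes with an adjusted p under 0.05, blue lines the median of a role, and the dotted line the median of all 9520 tested probe sets, -0.011. Most genes sit near that line, while 2 of the 3 4E-BP genes lie to its right and Eif1b and Eif2ak3 farthest to its left.

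The 4E-BP genes, whose proteins inhibit eIF4E, gave 2 of the 4 rising calls. Eif4ebp1 (4E-BP1) had log2 signals of 8.69, 9.21, 9.37, 9.25 and 9.61 in the control, 5%, 10%, 20% and 30% CR pools at 1 w, and of 8.84, 8.88, 9.34, 9.54 and 9.56 at 1 m. All 8 restricted pools were above their control, the 5% CR pool at 1 m only slightly. The slope was 0.25 ± 0.048 (SE, 10 pools; adjusted p = 0.0133), which is 1.67-fold at 30% CR on the fitted line. It was 0.23 at 1 w and 0.26 at 1 m. Eif4ebp2 (4E-BP2) had 7.97, 8.16, 8.35, 8.42 and 8.52 at 1 w and 7.59, 7.66, 8.0, 7.80 and 7.97 at 1 m. Again each restricted pool was above its own control. The slope was 0.14 ± 0.038 (adjusted p = 0.0453), or 1.33-fold at 30% CR. Eif4ebp3, the third gene of this family, did not pass, with a slope of -0.001 ± 0.054 and 6 of 8 restricted pools below control.

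Their target did not pass either. Eif4e, which binds the cap, had a slope of -0.09 ± 0.03 (adjusted p = 0.0739) with 7 of 8 restricted pools below control. Among the 12 tested genes of the eIF4 cap-binding and helicase group, 0 passed on the dose slope in limma (median -0.001, range -0.09 to 0.14), and 3 had an unadjusted p under 0.05. The helicase pair of this group had slopes of opposite sign, and the difference between the pair was not tested. Eif4a2 had 9.88, 10.34, 10.59, 10.39 and 10.46 at 1 w and 10.27, 10.44, 10.64, 10.75 and 10.69 at 1 m, so all restricted pools were above control and most of the step was reached at 10% CR. Its slope was 0.14 ± 0.048 (adjusted p = 0.0903). Eif4a1, the other eIF4A helicase, had a slope of -0.09 ± 0.034 (adjusted p = 0.102) and 7 of 8 restricted pools below control. The scaffold genes Eif4g1 and Eif4g2 had slopes of -0.011 and 0.006, and Eif4g3 of -0.09 ± 0.042 with all 8 restricted pools below control.

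**Figure D2:**
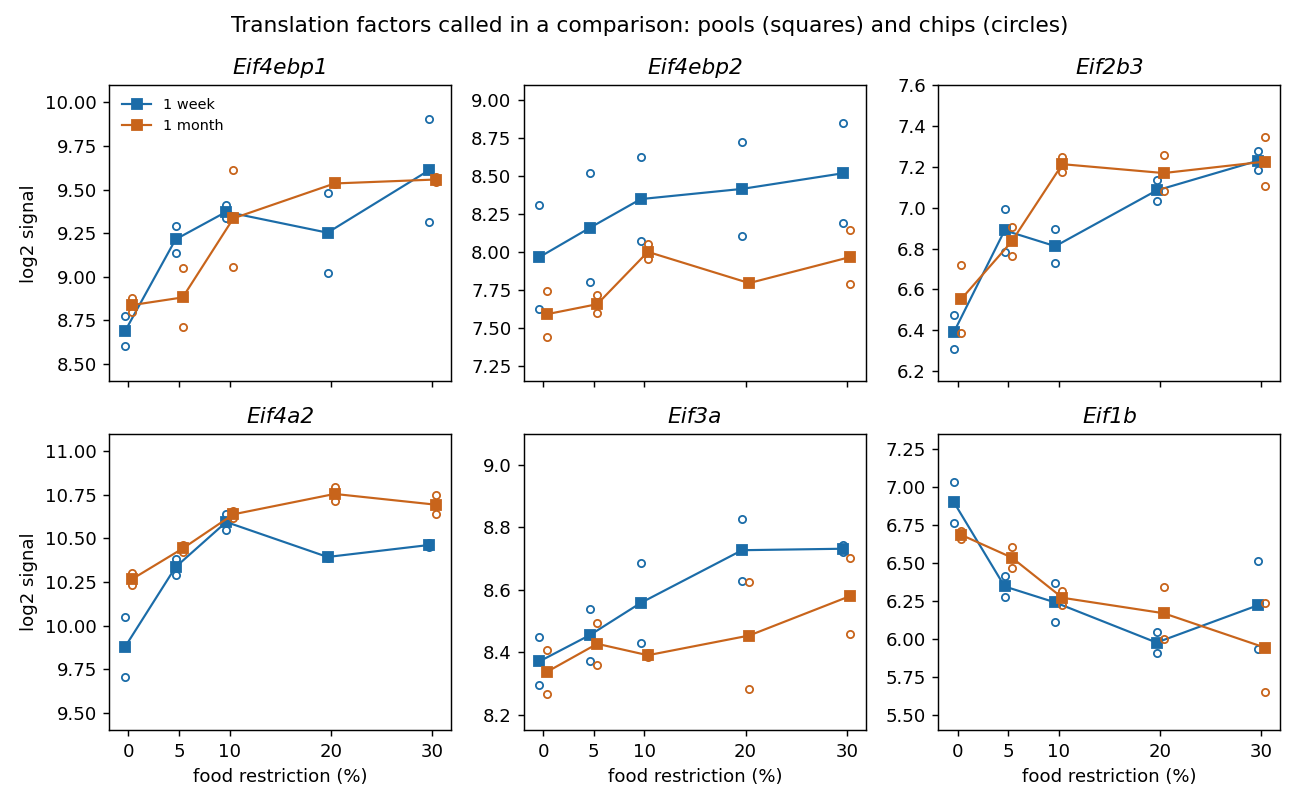
Log2 signal (y axis) against food restriction in percent (x axis) for the 6 translation factor genes that passed a test of restriction, at 1 week in blue and 1 month in orange. Squares are pool means, joined by lines, and open circles are the 2 chips of each pool. Eif1b falls and the other 5 rise from the control pools, and the 2 chips of the 1 week Eif4ebp2 pools lie far apart.

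In eIF2B, the exchange factor of eIF2, 1 of 5 genes rose. Eif2b3, the gamma subunit, had 6.39, 6.89, 6.81, 7.08 and 7.23 at 1 w and 6.55, 6.83, 7.21, 7.17 and 7.22 at 1 m. Every restricted pool was above both controls. The slope was 0.22 ± 0.048 (adjusted p = 0.0211), or 1.58-fold at 30% CR. Eif2b5 (epsilon) had a slope of 0.10 ± 0.04 (adjusted p = 0.122), and Eif2b4 (delta) 0.10 ± 0.048 (adjusted p = 0.191), each with 7 of 8 restricted pools above control. Eif2b1 (alpha) was at -0.008 and Eif2b2 (beta) at -0.08 ± 0.037, with all 8 restricted pools of Eif2b2 below control. The slopes of the 5 subunits were of both signs, and 2 of the 5 had an unadjusted p under 0.05.

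The kinases that phosphorylate eIF2 gave 0 calls among 3 tested genes in limma (1 at an unadjusted p under 0.05), with a median slope of -0.15. Eif2ak3 (PERK, the kinase of endoplasmic reticulum stress) had 6.01, 5.91, 5.62, 5.40 and 5.15 at 1 w and 6.05, 6.16, 4.86, 5.15 and 5.60 at 1 m. At 1 w its signal was lower at each higher level, while at 1 m the 10% CR pool was lowest and the 5% CR pool above control. The slope was -0.24 ± 0.097 (adjusted p = 0.124). With the lymphocyte mean as a covariate it was -0.042 (adjusted p = 0.835), and the pools with the lowest Eif2ak3 at 1 m, 10% and 20% CR, were also those with the lowest lymphocyte markers at 1 m, 3.79 and 4.05. Eif2ak2 (PKR, the kinase that binds double-stranded RNA) had a slope of -0.15 ± 0.071 (adjusted p = 0.192) and was below control in all 8 restricted pools, and its slope was -0.051 with the lymphocyte mean. Eif2ak1 (HRI, the heme-regulated kinase) was at -0.008 ± 0.031, with 3 of 8 restricted pools above control. A slightly dimmer probe set of Eif2ak1, which does not stand for the gene, was at 0.059 (adjusted p = 0.407 in limma), with 6 of 8 above control. The part of lymphocytes in these kinase values was not tested further.

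Among the 9 genes of the initiator tRNA and start codon group, 0 rose and 1 fell, with a median of -0.06 (-0.016 with centred chips). Eif1b, a close relative of eIF1, which guards the choice of start codon, had 6.90, 6.35, 6.24, 5.98 and 6.22 at 1 w and 6.69, 6.54, 6.27, 6.17 and 5.94 at 1 m. All 8 restricted pools were below both controls. The slope was -0.22 ± 0.054 (adjusted p = 0.0306), or 0.635-fold at 30% CR. Eif1ax and Eif1ad, both related to eIF1A, had slopes of -0.10 ± 0.034 (adjusted p = 0.0866) and -0.12 ± 0.044 (adjusted p = 0.113), with all 8 restricted pools below control. Among the subunits of eIF2, Eif2s3 (gamma) was at -0.09 ± 0.033 with all 8 restricted pools below control, Eif2s2 (beta) at -0.031 and Eif2s1 (alpha), which the kinases phosphorylate, at 0.001.

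Of the 11 tested subunits of eIF3, the large complex on the small ribosomal subunit, 1 rose and 0 fell (median -0.015, and 0.031 with centred chips). Eif3a, its scaffold subunit, had 8.37, 8.46, 8.56, 8.73 and 8.73 at 1 w and 8.34, 8.43, 8.39, 8.45 and 8.58 at 1 m. The rise was small, and all restricted pools were above their control. The slope was 0.10 ± 0.028 (adjusted p = 0.0461), or 1.23-fold at 30% CR. Eif3b and Eif3j were also above control in all 8 restricted pools, with slopes of 0.06 ± 0.034 and 0.04 ± 0.027. Eif3d and Eif3m were below control in all 8, with slopes of -0.015 and -0.03. The lowest slope in the complex was that of Eif3i, -0.07 ± 0.045.

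Elongation factors gave 0 calls in 5 tested genes in limma (1 at an unadjusted p under 0.05), and 4 of the 5 slopes were below 0 (median -0.043, and 0.003 with chips centred on their median). Eef1g, the gamma subunit of the eEF1B exchange complex, had 10.64, 10.30, 10.17, 10.26 and 10.08 at 1 w and 10.64, 10.71, 10.23, 10.24 and 10.34 at 1 m. Its slope was -0.13 ± 0.044 (adjusted p = 0.0783), and 7 of 8 restricted pools were below control. Eef1b2, the nucleotide exchanger of that complex, was below control in all 8 (slope -0.07 ± 0.035, adjusted p = 0.202). Eef1d had a slope of -0.043 and Eef2, the translocase, of -0.041. Eef1a1, which delivers aminoacyl-tRNA, was at 0.026 ± 0.061. Eif5a, whose hypusine residue helps the ribosome through difficult peptide bonds, was at -0.05 ± 0.028 and Eif6, which keeps the ribosomal subunits apart, at 0.009 ± 0.045.

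Of 3 tested genes grouped here as elongation regulators, 0 passed in limma, and 2 had an unadjusted p under 0.05. Eef1e1, an auxiliary protein of the multi-synthetase complex, had a slope of -0.14 ± 0.043 (adjusted p = 0.0673), and Eef1akmt1, a methyltransferase of eEF1A, of -0.10 ± 0.044 (adjusted p = 0.139). Both were below control in all 8 restricted pools. Eef2k, the kinase that blocks eEF2, depended on the probe set. The one with the highest signal had a slope of 0.03 ± 0.059. A dimmer one, which does not stand for the gene, had 4.5, 5.05, 5.22, 5.46 and 5.50 at 1 w and 4.15, 5.12, 5.28, 5.17 and 4.89 at 1 m, and rose by 0.88 in restricted against control pools (adjusted p = 0.0195), against 0.03 in the brighter one. These probe sets therefore differed in size. Their dose slopes were 0.03 and 0.22 (adjusted p = 0.798 and 0.146 in limma), with 6 and 8 of 8 restricted pools above control. At 1 m alone the slopes were -0.06 and 0.15. The remaining Eef2k probe sets, too dim to be tested, were above control in 7 and 5 of 8 restricted pools. No size of change is given for Eef2k.

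**Figure D3:**
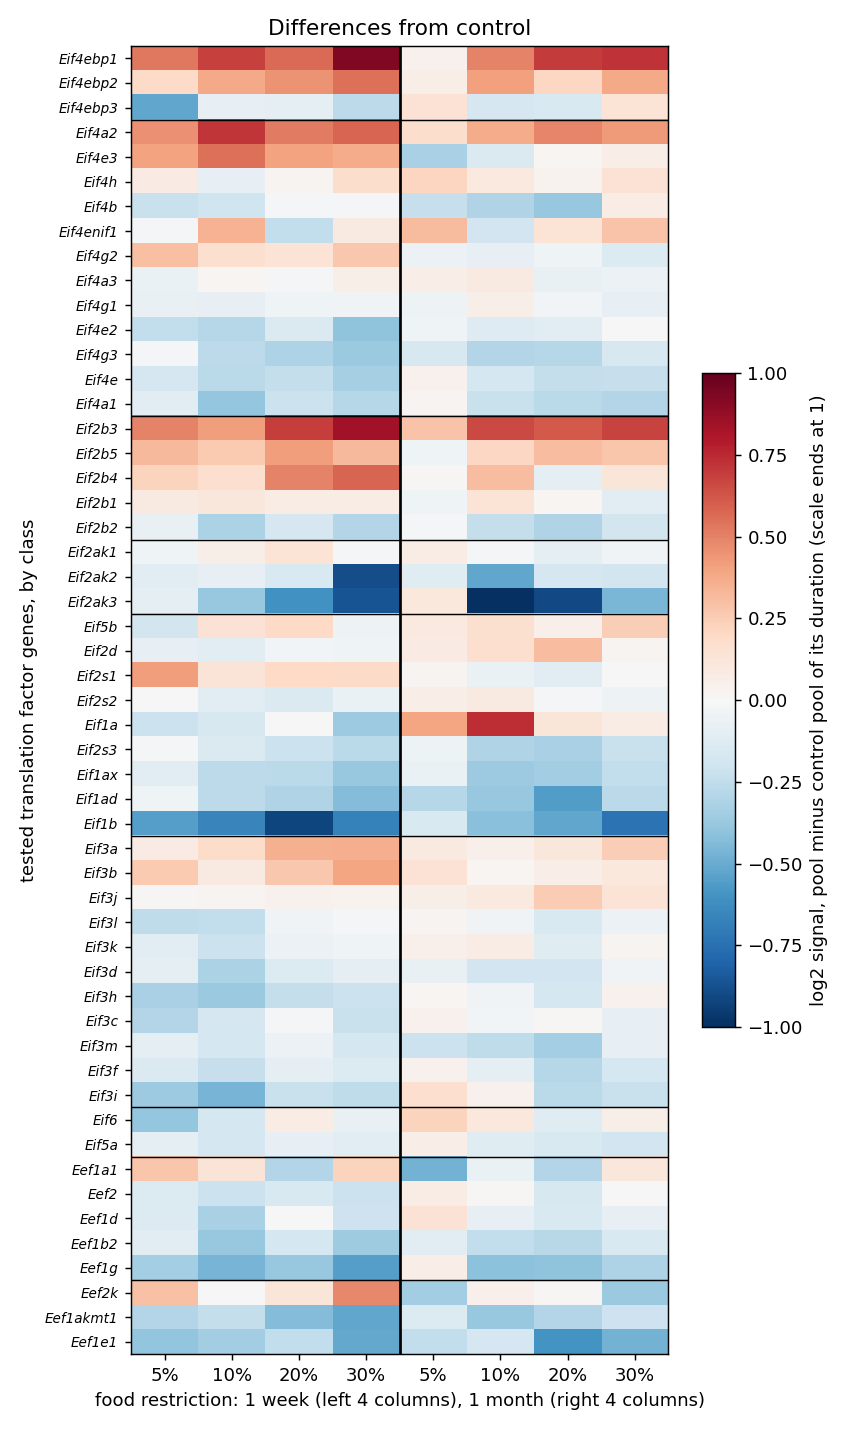
Log2 difference of each restricted pool from the control pool of its duration (colour, red above and blue below control) for the 53 tested genes (rows, grouped by role, black lines between roles) at 5% to 30% restriction (columns, 1 week left, 1 month right). Colours end at a difference of 1, and 1 value, Eif2ak3 in the 1 month 10% pool at -1.19, lies beyond. Of the 53 rows, 7 are above control throughout, among them Eif4ebp1, Eif2b3 and Eif4a2, and 13 are below it throughout, among them Eif1b.

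Counting signs over pools, 7 factors (13.2%) were above control in all 8 restricted pools, against 15.1% of all tested probe sets, and 13 (24.5%) were below control in all 8, against 14.8%. The 7 were Eif4ebp1, Eif4ebp2, Eif2b3, Eif3a, Eif3b, Eif3j and Eif4a2. The 13 were Eif1b, Eif1ad, Eif1ax, Eif2s3, Eif2b2, Eif2ak2, Eif3d, Eif3m, Eif4e2, Eif4g3, Eef1b2, Eef1e1 and Eef1akmt1. The pools of a duration share their control, so these 8 signs are not independent. Differences in single pools were small. A difference of at least 1.5-fold with all 4 chip pairs of one sign was found in at least 1 restricted pool for 8 factors (15.1%), against 40.4% of all tested probe sets. It was found in at least 4 pools for 4 factors (7.55% against 12.6%). Eif2b3 reached it in 5 pools, all up, Eif4ebp1 in 4 up, and Eif1b and Eif2ak3 in 4 down. The median SD between chips of a pool was 0.122 for the factors and 0.186 for all tested probe sets.

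Comparing the 8 restricted with the 2 control pools, regardless of level, 2 factors were up-regulated and 1 down-regulated (5.66%, against 5.93% of all, 4.34% up and 1.6% down). At an unadjusted p under 0.05 there were 14 factors (26.4%), against 29.5% of all. Eif2b3 was higher by 0.58 (1.5-fold, adjusted p = 0.0303) and Eif4a2 by 0.47 (1.38-fold, adjusted p = 0.0242). Eif1b was lower, with a difference of -0.58 (0.67-fold, adjusted p = 0.0456). Eif4ebp1 missed the threshold here with a difference of 0.58 (adjusted p = 0.0558), as did Eif4ebp2 with 0.33 (adjusted p = 0.0928). Leaving out the 1 w or the 1 m control pool leaves 1 control pool, so such a fit cannot decide whether these calls hold. Without the former the differences were 0.56 for Eif2b3, 0.37 for Eif4a2 and -0.46 for Eif1b. Without the latter they were 0.61, 0.57 and -0.70.

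The 5 dose slopes kept their sign in each setting tried, but their calls rested on single pools. Eif4ebp1 was no longer called without the 1 m control (slope 0.23, adjusted p = 0.0604) or the 1 w 30% CR pool (0.26, adjusted p = 0.071), and stayed just called without the 1 w control (0.21, adjusted p = 0.0498). Eif2b3 was lost without the 1 w control (0.18, adjusted p = 0.0739), the 1 m control (0.19, adjusted p = 0.0875) or the 1 w 30% CR pool (0.22, adjusted p = 0.091). Eif1b was lost without either control pool, the 1 w or 1 m 20% CR pool or the 1 m 5% CR pool (slopes from -0.22 to -0.17, adjusted p = 0.0565 to 0.113). Eif4ebp2 kept its call in 3 and Eif3a in 1 of the 10 fits that each left out a pool, with slopes of 0.11 to 0.16 and 0.09 to 0.11. Eif3a kept it only without the 1 m 10% CR pool, and Eif4ebp2 only without a 10% CR pool of either duration or the 1 m 30% CR pool. With the lymphocyte mean as a covariate 0 of the 53 factors were called (0 up and 0 down, when 177 of all probe sets were), and the slopes were 0.18 for Eif4ebp1, 0.16 for Eif2b3, 0.097 for Eif4ebp2, 0.11 for Eif3a and -0.21 for Eif1b, with adjusted p of 0.0848 to 0.305. Without both the 1 w control and 1 w 30% CR pools 0 factors were called, when 0.116% of all probe sets were called up and 0.042% down. The slopes were then 0.22, 0.19, 0.11, 0.09 and -0.24 in the same order.

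**Figure D4:**
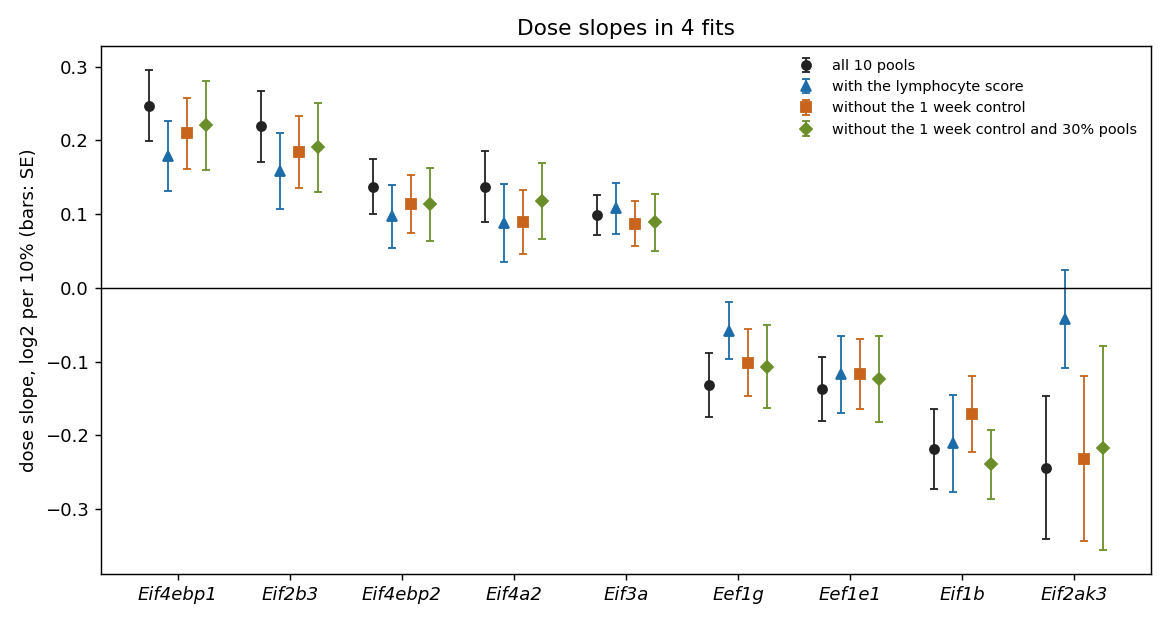
Dose slope (y axis, log2 signal per 10% restriction, bars SE) of 9 translation factor genes in 4 fits: all 10 pools (black circles), the lymphocyte marker mean as a covariate (blue triangles), without the 1 week control pool (orange squares), and without the 1 week control and 30% pools (green diamonds). The sign of each gene is the same in the 4 fits, and Eif2ak3 goes from -0.24 to -0.042 with the lymphocyte mean.

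At a single duration 0 factors were called. At 1 w 10 of 53 (18.9%) had an unadjusted p under 0.05, against 20.1% of all probe sets, of which 0.294% passed after adjustment, and the lowest adjusted p of a factor was 0.133. At 1 m 4 (7.55%) had an unadjusted p under 0.05, against 13.2% of all, of which 0.126% passed, and the lowest adjusted p was 0.185. The slopes at 1 m minus those at 1 w ran from -0.18 to 0.23 over the factors. None of these differences passed (0% of all probe sets did), with 0 factors and 2.96% of all at an unadjusted p under 0.05 in limma.

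Between durations, at equal restriction, 1 factor passed (1.89%, against 2.82% of all, 2.02% down), and 11 (20.8%) had an unadjusted p under 0.05, against 19% of all. Eif4ebp2 was lower at 1 m than at 1 w by a log2 difference of -0.48 (0.717-fold, adjusted p = 0.0116). The 1 m rats were also older, and the value depends on how the chips are scaled. The 2 chips of each 1 w pool differed widely for this gene. The first chips read 7.63, 7.80, 8.08, 8.11 and 8.19 and the second 8.31, 8.52, 8.62, 8.73 and 8.85. From the first chips alone the difference between durations was -0.20 (adjusted p = 0.347). It was also lost when chips were centred on their median, and without the 20% CR pool of either duration (-0.44 in each, adjusted p = 0.061 and 0.0616).

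The pathways around these factors were read from lists with the same test, and the adjusted p-values are from limma over all probe sets. The lists were chosen with earlier results of these data known, so their counts are descriptions only. On the dose slope 5.71% of all tested probe sets were called up and 3.69% down. The list of aminoacyl-tRNA synthetases, which charge tRNA, also holds Aimp1 and Aimp2 of the multi-synthetase complex. Of its 20 tested genes 0 rose and 4 fell with dose: Wars1 (-0.17, adjusted p = 0.0133), Tars1 (-0.16), Aars1 (-0.15) and Gars1 (-0.13), with a median of -0.045 over the list. Without the 1 w control pool 1 of the list was called, and 0 with the lymphocyte mean. With chips centred on their median 0 were called either, and the median of the list was 0.0009. Of 16 tested genes of the integrated stress response, the programme downstream of phosphorylated eIF2, 5 rose and 0 fell. Nupr1, a stress-induced chromatin protein, had a slope of 0.60. Phgdh and Psat1 of serine synthesis had 0.24 and 0.20, the asparagine synthetase Asns 0.22 and the transcription factor Ddit3 0.21. Atf4 itself, which is controlled mainly at translation, was at 0.041. With the lymphocyte mean 3 of the 16 were called and without the 1 w control 3.

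Of 21 tested genes of mTORC1 signalling, 1 rose with dose, namely Pdcd4, an inhibitor of the eIF4A helicase (0.28, adjusted p = 0.0259). It was not called with the lymphocyte mean (0.17, adjusted p = 0.173), and without the 1 w control 0 genes of the list were. In restricted against control pools 5 rose and 0 fell, when 4.34% of all tested probe sets were called up and 1.6% down. The 5 were Pdcd4 by 0.82, the insulin receptor Insr by 0.74, the Rag GTPase Rragc by 0.56, the kinase Akt2 by 0.54 and Mknk2, a kinase of eIF4E, by 0.47. With the lymphocyte mean 2 genes of the list were called in this comparison. Without the 1 w control, which leaves 1 control pool, the median difference of the list was 0.22, against 0.18 with all pools. Mtor itself had a dose slope of 0.036. Of 10 tested release and recycling factors, 1 rose, Hbs1l (0.14). It was not called with the lymphocyte mean (0.098, adjusted p = 0.257), and without the 1 w control 0 of the 10 were. Of the poly(A)-binding and related genes 0 of 6 passed (1 at an unadjusted p under 0.05), with Paip2b at 0.11 and Pabpn1 at -0.06. Of 4 tested mitochondrial translation factors 0 passed (2 at an unadjusted p under 0.05), with Tufm at 0.13 (adjusted p = 0.0643) and Gfm1 at 0.10.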

How the data were processed

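Gene expression was measured in 10 pools on 20 one-colour Affymetrix rat arrays. The authors deposited MAS5 signal intensity values on a linear scale, and MAS5 is named in the submitters' processing notes; its version was not given in the sources used here. Detection and change calls were not used. The trimmed means of the deposited chips differed (77.7 and 111.7 for the first and second chips at 1 w, 98.5 and 98.1 at 1 m), so each chip was scaled to a trimmed mean of 100 (trim 2%), set to a floor of 1 (0.769 to 3.75% of a chip's values) and taken to log2. The number of arrays limits the precision. Of 15923 probe sets 57 array controls were left out. Of the rest, 12783 have 1 gene symbol, 312 several and 2771 none, and 12748 probe sets were matched by gene identifier to the RefSeq gene table (GRCr8). The 4 probe sets with several symbols that include Eif5 or Eif3e were left out.

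Each pool was the mean of its 2 chips. Linear models were fitted over the 10 pools with limma 3.58.1 under R 4.3.3 (lmFit, eBayes with trend, two-sided, Benjamini-Hochberg, threshold 0.05), for the 9520 probe sets left by a filter on low mean signal (40th percentile, a signal of 23.8). The models held duration with the restriction level (7 residual degrees of freedom), levels within durations (6), restricted against control (7), or duration with the 5 levels (4). Every adjusted p is from limma. The fit was tested on simulated data with independent errors for each probe set. That test does not cover shifts of a pool that many genes share, so it cannot give the rate of false calls here. Alternatives were other scalings, filters, left-out pools and chips, marker scores as covariates and a replicate block. Leaving out the 1 w control and 30% pools together, the 3 pools of lowest lymphocyte score, and the pancreas score were added after seeing the data. The members and lists were chosen with earlier results of these data known. Named genes are the members past the threshold, else the 2 of largest slope per role, members changed in at least 4 pools, and in each pathway list the 4 largest of the genes called, or 2 where none was, while other members and list genes were named after their values were seen.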

Additional observations from a re-analysis of the deposited data

Results flagged for a closer look

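The 3 results stand out because every restricted pool of one duration moved one way and every restricted pool of the other duration the opposite way. They are Eif4g2, a relative of eIF4G that lacks the cap-binding part, Eif2d, which can bring tRNA to the ribosome, and Eif1a. Eif4g2 was above control in the 4 restricted pools at 1 w and below it in those at 1 m, and its slope at 1 m minus that at 1 w was -0.077. A dimmer probe set of Eif4g2, which does not stand for the gene, did not show this movement. It was above control in 3 and below control in 5 of the restricted pools. Eif2d was below control at 1 w and above it at 1 m, with a difference of 0.024. Eif1a was also below control at 1 w and above it at 1 m, with a difference of 0.014. This opposite movement itself was not tested, and the difference of the dose slopes had an adjusted p of 0.999 in limma for each of them. Opposite movement of this kind was seen in 3 of 53 factors (5.66%) and in 373 of 9520 probe sets (3.92%).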

How the results depend on the processing

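The number of factors called on the dose slope, 5, became 3 with chips centred on their median (3 up, 0 down), 3 with no filter, 3 with no intensity trend, 3 with the pancreas score as a covariate, 3 without the 3 pools of lowest lymphocyte score, 1 without the pool with pancreas genes (the 1 w control), and 0 both with the lymphocyte score and without the 1 w control and 30% pools. It ran from 0 (without the 1 m control) to 10 (without the 1 m 10% CR pool) when 1 pool was left out, and was 1 without the second chips and 4 without the first. Without the 1 m 30% CR pool it was 8, without the 1 w 30% CR pool 1. Of all probe sets, 5.71% were called up and 3.69% down with all 10 pools. These shares were 1.83% and 0.851% without the 1 w control, and 1.27% and 0.41% without the 1 m control. They were 1.07% and 0.788% with the lymphocyte score, and 0.116% and 0.042% without the 1 w control and 30% pools. In these 4 fits calls thus fell over the whole array too.

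For restricted against control, 3 calls became 1 with no intensity trend. They became 0 with the lymphocyte score, with the pancreas score, and without the 3 pools of lowest lymphocyte score. Of all probe sets these 3 fits called 0.588%, 0.273% and 0.683% up and 0.0735%, 0.084% and 0.137% down. The main fit called 4.34% up and 1.6% down. Leaving out 1 restricted pool gave 0 (without the 1 w 20% CR pool) to 11 (without the 1 m 5% CR pool). Leaving out 1 chip of each pool gave 0 to 3. Fits that leave 1 control pool are not counted for this comparison. Between durations, 1 call became 2 with the values as deposited, 0 with centred chips and 0 under both added exclusions of pools, with 0 to 2 over the left-out pools and 0 to 1 over the left-out chips. The 8 factors changed in at least 1 restricted pool (15.1%, against 40.4% of all probe sets) became 34 at a lower fold minimum and 1 at a minimum of 2-fold. The shares of all probe sets at these other minimums are not given here, so the 2 counts cannot be read against the array. The slopes within 1 duration and their difference gave 0 factors in all settings tried, except the block at 1 w. The causes were not tested.

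Over the rescaled chips, deviations of same-numbered chips correlated at 0.02 to 0.18 at 1 w and -0.09 to 0.22 at 1 m, and the numbers were not taken as pairs in the main fit. The replicate block was fitted on single chips with the pool as a random term and the chip number within each duration as a fixed term. The 2 chips of a pool carry the same RNA, and all probe sets shared 1 correlation between them. Larger counts from the block therefore do not rest on more rats or pools. The block called 13 factors on the dose slope, 5 up (9.43%) and 8 down (15.1%), against 9.4% and 8.76% of all probe sets. In restricted against control it called 9, 4 up (7.55%) and 5 down (9.43%), against 9.6% and 8.2% of all. On the slope at 1 w it called 2, both up (3.77%), against 4.73% up and 2.61% down of all. No called gene changed sign in the settings tried. Eif6, not called, did, from 0.009 to -0.006 and -0.016 without the 1 w 20% and 5% CR pools and -0.012 without the second chips.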

Other observations

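Probe sets that the platform annotation pairs with a factor and a second symbol were kept out of the counts. The 3 probe sets shared by Eif5, which triggers GTP hydrolysis by eIF2 at the start codon, and its pseudogene had dose slopes of -0.001, -0.003 and 0.035. The probe set shared by Eif3e, a subunit of eIF3, and Eif3el1 had a slope of -0.034. Of the factors with too little signal to be tested, Eif2ak4 (GCN2, the kinase that senses uncharged tRNA) was below control in all 8 restricted pools, with log2 signals of 4.70 and 4.75 in the controls at 1 w and 1 m and 4.11 to 4.60 in the restricted pools. Eef1a2, the eEF1A of muscle and neurons, read 2.79 in the 1 w control and 4.26 to 4.89 in the other 9 pools.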
